A study of Homo sapiens with 6 samples.

Results

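The thyroid cancer driver genes described here are BRAF, TERT, NRAS, HRAS, NF1, NF2 and RB1, 7 of the 58884 gene identifiers of the expression table. They were chosen by name, as genes recurrently altered in thyroid carcinoma, with earlier results of these data known. All 7 were found and had reads in all 6 libraries. RNA sequencing was used to measure their transcripts in 3 established human thyroid cancer cell lines in which the level of CRABP2, a cytoplasmic retinoic acid-binding protein, was lowered or raised. The BHT-101 and FTC-133 lines received either a control siRNA (siControl) or an siRNA against CRABP2 (siCRABP2). The 8505C line carried either an empty vector or a CRABP2 vector. Each group is 1 library, so a difference between the 2 libraries of a line has no replicate check. The control and treated arms of a line share that line's genome, and no source used here says if the vector cultures were clones or pools.

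BHT-101 and 8505C are lines from anaplastic thyroid carcinoma, and FTC-133 is from a follicular carcinoma. As background, BHT-101 and 8505C are known as BRAF-mutant lines, and FTC-133 is known for loss of NF1 function. The files hold transcript levels only, and no allele was read here. NRAS and HRAS are small GTPases that switch on BRAF, a kinase that starts the MEK-ERK cascade. NF1 encodes neurofibromin, a GTPase-activating protein that turns RAS proteins off. NF2 encodes merlin, a scaffold at the cell cortex that activates the Hippo kinases LATS1 and LATS2. RB1 encodes the retinoblastoma protein, which holds E2F transcription factors in check, and TERT encodes the catalytic subunit of telomerase, which is silent in most adult epithelia and is switched on in many aggressive thyroid carcinomas by promoter mutations that create ETS-type sites.

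The targeted gene followed the labels. CRABP2 was at 27.3 FPKM (fragments scaled to exon length and library depth) with siControl and 11.4 with siCRABP2 in BHT-101, at 8.94 and 0.170 in FTC-133, and at 0.607 and 38.0 in the 8505C empty and CRABP2 vector libraries. Depth was 22084110 to 27958622 assigned reads per library. Thyroid transcripts were few and differed by line: TG and TSHR were below 0.5 FPKM in every library. PAX8, a thyroid transcription factor, was at 12.3 and 13.0 FPKM in FTC-133 and at 0.273 or less in the other 4 libraries. The deiodinase gene DIO1 was at 4.06 and 3.20 FPKM in BHT-101 and at 0.124 or less elsewhere. NKX2-1, another such factor, was listed at 0 in BHT-101 and lay at 12.4 to 22.6 FPKM in FTC-133 and 8505C. Keratins KRT8 and KRT18 were above 18 FPKM in every library, but KRT19 was at 328 and 350 FPKM in BHT-101 and at 0.310 or less elsewhere. The adhesion genes EPCAM and CDH1 were at 0.174 or less in 8505C, and CDH1 was at 0.163 or less in FTC-133 too. Of 12 markers of other cell types, 1 or 2 reached 1 FPKM in each library, and their summed level was 4.01 to 4.64 FPKM in BHT-101, 14.9 to 22.0 in FTC-133 and 17.3 to 20.5 in 8505C. The FTC-133 sum was mostly ACTA2, at 14.8 and 8.74 FPKM, and the 8505C sum mostly CD14, at 16.4 and 12.9 FPKM. The part of these transcripts in the results was not tested.

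The promoters of NF1 and NF2 are shown because they are the 2 members that differed between FTC-133 and each of the other lines in the limma fit. Both are RefSeq sequences of build GRCh38.p14, on the plus strand, from 250 bases before to 30 bases after the RefSeq gene start. NF1 lies at chr17:31094727-31095006 and its window holds a cyclic AMP response element and an ETS core. NF2 lies at chr22:29603306-29603585 and its window holds an E2F match and a GC box. Capitals mark these matches.
NF1: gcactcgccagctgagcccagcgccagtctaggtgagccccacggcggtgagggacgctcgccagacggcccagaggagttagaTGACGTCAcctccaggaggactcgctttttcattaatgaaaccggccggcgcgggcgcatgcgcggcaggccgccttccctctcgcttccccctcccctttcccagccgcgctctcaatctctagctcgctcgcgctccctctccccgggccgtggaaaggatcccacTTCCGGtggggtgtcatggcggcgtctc
NF2: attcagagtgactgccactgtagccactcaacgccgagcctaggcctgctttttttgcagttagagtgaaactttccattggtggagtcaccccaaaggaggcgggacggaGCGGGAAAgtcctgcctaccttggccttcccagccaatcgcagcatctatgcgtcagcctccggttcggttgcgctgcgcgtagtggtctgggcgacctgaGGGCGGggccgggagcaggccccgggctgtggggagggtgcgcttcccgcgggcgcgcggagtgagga

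The letters searched, on both strands, were TTTCCCGC and TTTGGCGC for E2F, CCGGAA for ETS, GGGCGG for the GC box, TGACGTCA for the cyclic AMP response element, CCAAT for the CCAAT box and TATAAA for the TATA box. The retinoic acid receptor half-site AGGTCA was searched alone and as a direct repeat with a spacer of 5 bases. Among 35116 promoters of the RefSeq table, 1.85% held the cyclic AMP element, 17.2% the ETS core, 1.63% the E2F letters TTTCCCGC and 45.0% the GC box. NF2 also held 2 CCAAT boxes, a match found in 34.6% of promoters. Of the 6 members with a window near their annotated start, only BRAF held the half-site AGGTCA, which 13.8% of promoters hold, and none held the direct repeat, found in 2 promoters of the table. A match here is a description of the letters, and no binding was measured.

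The 2 RAS genes had the highest levels of the 7 and varied least. NRAS (ENSG00000213281, chromosome 1, 114704469 to 114716894, minus strand) was at 32.2 and 37.1 FPKM in BHT-101 (siControl, then siCRABP2), 33.8 and 27.4 in FTC-133, and 34.9 and 43.4 in 8505C (empty, then CRABP2 vector). HRAS (ENSG00000174775, chromosome 11, 532242 to 537287, minus strand) was at 18.5 and 16.6 FPKM in BHT-101, 16.6 and 13.8 in FTC-133, and 17.7 and 19.8 in 8505C. The highest library exceeded the lowest by 1.58-fold for NRAS and 1.43-fold for HRAS. For both genes BHT-101 overlapped the other lines, and both 8505C libraries lay above both FTC-133 libraries. FPKM divides reads by annotated exon length, so a comparison between genes holds only as far as that length matches the expressed transcripts. A table level pools all transcripts of a gene, wild-type and mutant alike, and in bulk RNA fewer expressing cells and less RNA per cell cannot be told apart.

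BRAF (ENSG00000157764, chromosome 7, 140719327 to 140924928, minus strand) was low, at 1.40 and 1.49 FPKM in BHT-101, 1.71 and 2.12 in FTC-133, and 2.63 and 2.25 in 8505C. Both 8505C libraries lay above both FTC-133 libraries, and those above both BHT-101 libraries. These low values rest on 780 to 1409 reads a library, because the annotated exons of BRAF add up to 23432 bases, longer than a single mRNA, which lowers its FPKM against that of genes with 1 main transcript. NF1 has the same limit, with 27130 bases.

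NF1 (ENSG00000196712, chromosome 17, 31094927 to 31382116, plus strand) differed most between FTC-133 and 8505C. It was at 2.54 and 2.59 FPKM in BHT-101, 0.980 and 1.10 in FTC-133, and 7.61 and 4.70 in 8505C. The lines did not overlap, and FTC-133, the line known for NF1 loss, was lowest. Its 660 and 808 reads in FTC-133 are well above the floor of 3 reads, so the transcript was low there and not undetected.

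NF2 (ENSG00000186575, chromosome 22, 29603556 to 29698598, plus strand) had the opposite order at its top. It was at 14.2 and 8.04 FPKM in FTC-133, 2.63 and 2.58 in BHT-101, and 3.35 and 2.29 in 8505C. FTC-133 stood above both other lines, which overlapped. RB1 (ENSG00000139687, chromosome 13, 48303726 to 48599436, plus strand) was also highest in FTC-133, at 15.9 and 11.7 FPKM, against 10.9 and 10.001 in 8505C and 7.10 and 7.56 in BHT-101, with no overlap between lines.

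TERT (ENSG00000164362, chromosome 5, 1253147 to 1295069, minus strand) was near 1 FPKM in both siRNA lines, at 1.04 and 1.15 in BHT-101 and 1.15 and 0.951 in FTC-133. In 8505C it was at 0.0380 FPKM without the CRABP2 vector, from 4 reads, and at 0.0689 with it, from 7 reads. The BHT-101 and FTC-133 libraries had 118 to 134 reads each and overlapped, and both 8505C libraries lay far below them.

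**Figure D1:**
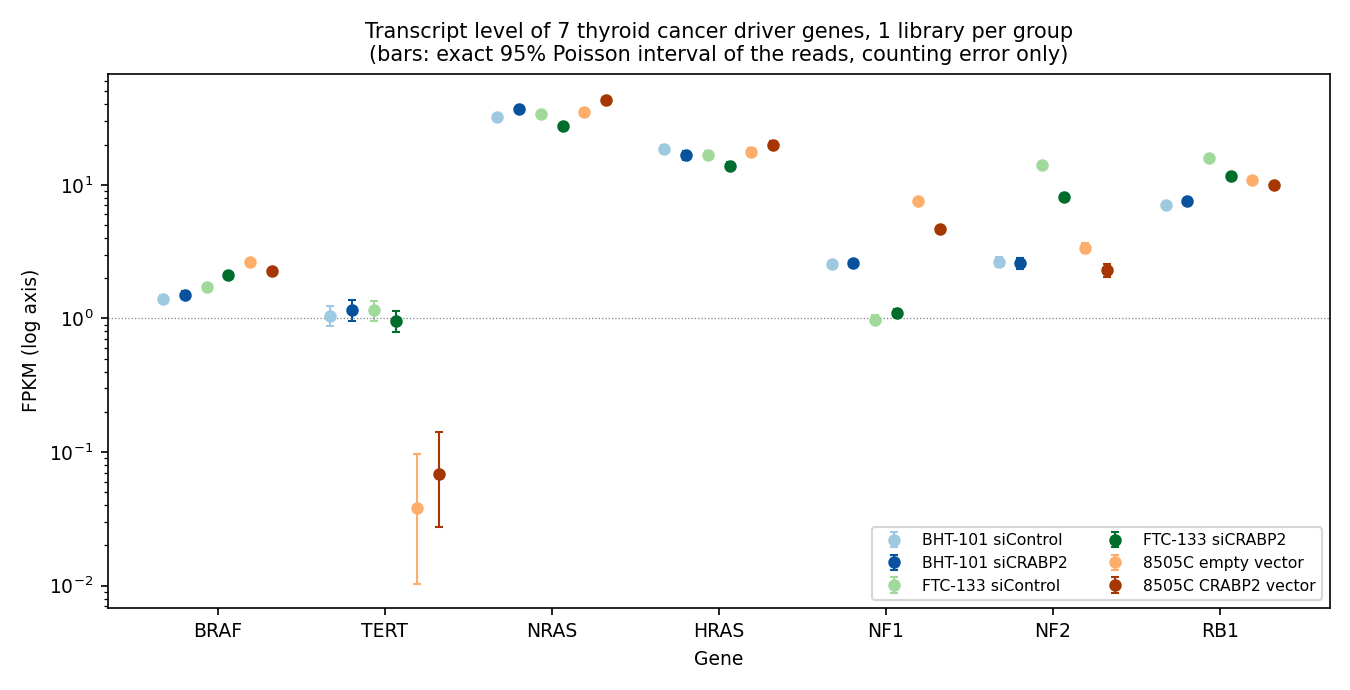
Level of each of the 7 genes in FPKM (log axis) in the 6 libraries, 1 point a library, with bars for the exact 95% Poisson interval of its reads and the control library of each line in the lighter shade. NRAS and HRAS lie between 13.8 and 43.4 FPKM in all libraries, TERT is at 0.0689 FPKM or below in 8505C, and NF2 is highest in FTC-133 at 14.2 and 8.04 FPKM.

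The 3 lines were compared with limma on log2(FPKM + 1), fitting line and arm together over all 6 libraries (2 residual degrees of freedom) and adjusting p-values by Benjamini-Hochberg over 11628 genes. The spread in this fit is how far the difference between the lower and higher CRABP2 arms varies from line to line. The arm difference shared by the lines is removed, and siRNA and vector arms are mixed. Nothing in the labels says that the libraries are from separate cultures, so this spread may be technical. The lines differ in many genes: at a limma adjusted p under 0.05, 41.9% of genes tested differed between FTC-133 and BHT-101 (3105 higher and 1763 lower in FTC-133), 61.2% between 8505C and BHT-101 (3552 and 3566), and 58% between 8505C and FTC-133 (2817 and 3923). The 7 members gave 3 calls in each contrast, a share near that background in the first contrast and below it in the other 2. In both 8505C contrasts these calls include TERT, which reached 1 FPKM only in libraries of the siRNA lines. It could therefore be tested only as low in 8505C. The members as a list are thus not set apart by differing between lines. The contrasts share libraries, and for 8505C the line and the use of a vector in place of siRNA cannot be told apart. The median of all genes was 0.17, 0.005 and -0.12 in the 3 contrasts, and scaling to TPM moved it to 0.33, 0.33 and 0.05. With TPM scaling the calls were 3760 higher and 1430 lower, 4654 and 2674, and 3408 and 3278, and with quantile normalization 2358 and 2130, 3796 and 3317, and 3599 and 3206.

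NF1 was lower in FTC-133 than in BHT-101 by a log2 difference of -0.81 (SE 0.21, limma adjusted p = 0.0187), and higher in 8505C than in BHT-101 by 0.98 (SE 0.21, limma adjusted p = 0.00534) and than in FTC-133 by 1.78 (SE 0.21, limma adjusted p = 0.000409). In reads summed over a line's 2 libraries and scaled to depth, NF1 was 5.94-fold higher in 8505C than in FTC-133 (exact 95% interval 5.62 to 6.28) and 2.46-fold higher in BHT-101 than in FTC-133 (2.31 to 2.62). These intervals cover counting error only. The FTC-133 to BHT-101 call was lost with no filter on low values and without either BHT-101 library (limma adjusted p up to 0.228 over the alternatives), and the 8505C to BHT-101 call without the BHT-101 siCRABP2 library (0.0817).

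The genes around NF1 did not share this order. The median of the 32 measured genes within 2 Mb was 0.40 for FTC-133 minus BHT-101 and -0.35 for 8505C minus FTC-133, each of the opposite sign to NF1. EVI2A and EVI2B, small genes inside an NF1 intron on the opposite strand, were highest in FTC-133, where NF1 was lowest: EVI2A was at 10.2 and 7.99 FPKM there and at 0.639 or less in the other 4 libraries. No source used here gives the strand setting of the counting, so reads of overlapping genes may not be separable. None of the 12 annotated NF1 pseudogene copies reached 1 FPKM in any library.

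NF2 was higher in FTC-133 than in BHT-101 by 1.70 (log2 difference, SE 0.27, limma adjusted p = 0.00311), and lower in 8505C than in FTC-133 by -1.63 (SE 0.27, limma adjusted p = 0.00207). The depth-scaled reads were 4.20-fold higher in FTC-133 than in BHT-101 (exact 95% interval 3.91 to 4.51) and 3.88-fold higher than in 8505C (3.61 to 4.17). Between 8505C and BHT-101 the difference was 0.07, far within its SE. Both NF2 calls were kept under each of the 13 alternatives run for them. The 41 measured neighbours within 2 Mb had a median of 0.51 for FTC-133 minus BHT-101 and -0.24 for 8505C minus FTC-133, of the same sign as NF2 and smaller.

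RB1 was higher in FTC-133 than in BHT-101 by 0.82 (SE 0.20, limma adjusted p = 0.0147), or 1.88-fold in depth-scaled reads. That call was lost with no filter on low values (limma adjusted p = 0.0573) and without the BHT-101 siControl, the BHT-101 siCRABP2 or the FTC-133 siControl library, with limma adjusted p up to 0.184 over its alternatives. RB1 in 8505C was between these lines and passed the test against neither. The 8505C to BHT-101 difference did pass it with TPM scaling (0.82 in place of 0.46, limma adjusted p = 0.0136) or without either FTC-133 library, and the 8505C to FTC-133 difference without FTC-133 siCRABP2 (limma adjusted p = 0.0367). An intron of RB1 encloses LPAR6, a lysophosphatidic acid receptor gene. LPAR6 was listed at 0 in both FTC-133 libraries and lay at 1.90 to 4.50 FPKM in the other 4, the reverse of RB1. RCBTB2, which overlaps RB1 on the opposite strand, was at 0.363 to 3.91 FPKM, highest in 8505C.

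TERT was lower in 8505C than in BHT-101 by -0.99 (SE 0.18, limma adjusted p = 0.00308) and than in FTC-133 by -0.96 (SE 0.18, limma adjusted p = 0.00387). With 1 added to each FPKM these values understate a change at so low a level. In depth-scaled reads TERT was 20.5-fold lower in 8505C than in BHT-101 (exact 95% interval 11.2 to 41.5) and 19.6-fold lower than in FTC-133 (10.8 to 39.8), from 252 reads summed over the BHT-101 libraries, 250 over FTC-133 and 11 over 8505C. Both calls were kept under the 10 alternatives in which TERT could be tested. It failed the filter on low values without either BHT-101 library or without FTC-133 siControl, the libraries where it reached 1 FPKM. The calls were therefore not checked against leaving those libraries out. TERT passed the filter on low values only through the libraries of the siRNA lines, so in this fit it could only be low in 8505C. FTC-133 and BHT-101 differed by -0.03, and TPM scaling turned this to 0.06. The 14 measured neighbours of TERT had a median of 0.16 for 8505C minus BHT-101.

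BRAF was higher in 8505C than in BHT-101 by 0.49 (SE 0.17, limma adjusted p = 0.0425). The call was lost with no filter on low values (limma adjusted p = 0.0873) and without any 1 of the 4 libraries of these lines, with limma adjusted p up to 0.312 over its alternatives. The 23 measured genes within 2 Mb of BRAF had a median of -0.99 in that contrast, with 4 of 23 above 0. NDUFB2, which overlaps BRAF on the opposite strand and encodes a subunit of respiratory complex I, was at 33.4 to 44.6 FPKM in the siRNA lines and 5.43 and 7.35 in 8505C. NRAS and HRAS passed the test in none of the 3 contrasts, with differences of -0.20 to 0.34. For them the SE was near 0.2, so a difference of that size could not be told from the spread. In 8505C minus FTC-133, HRAS did pass it with quantile normalization (0.44, limma adjusted p = 0.046) and TPM scaling (0.50, limma adjusted p = 0.0408), and NRAS with quantile normalization (0.58, limma adjusted p = 0.034).

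**Figure D2:**
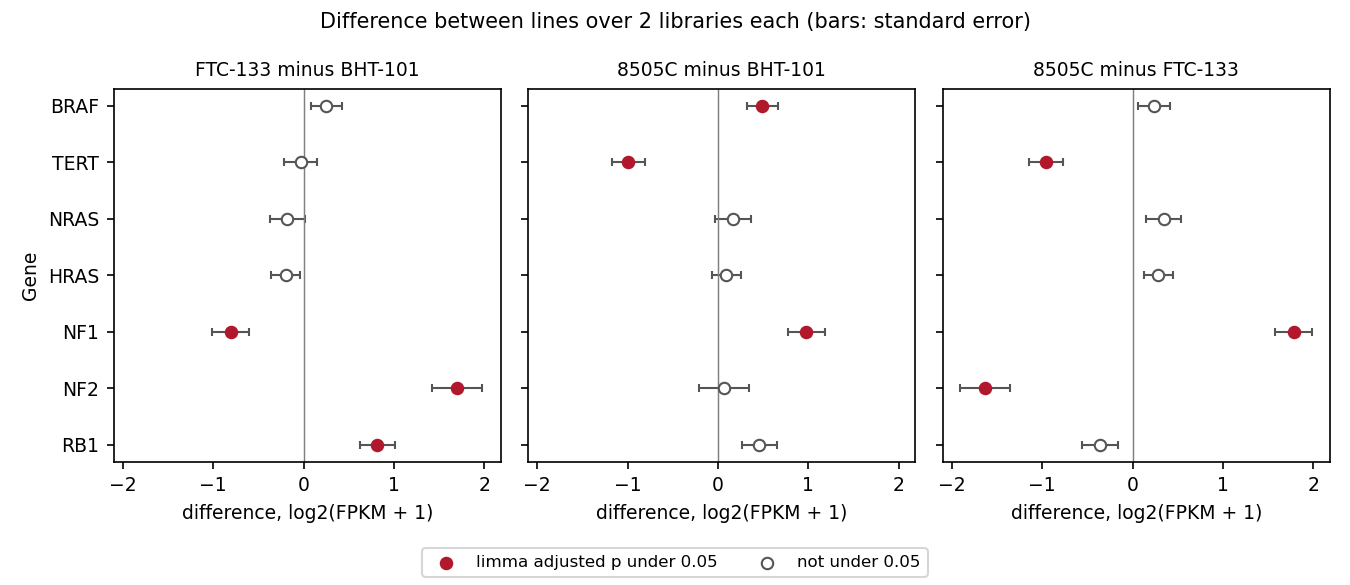
Difference between lines for each gene on the log2(FPKM + 1) scale, 1 panel a contrast, with bars for 1 standard error of the limma fit. Filled points have a limma adjusted p under 0.05: NF1 and NF2 reach 1.78 and -1.63 in 8505C minus FTC-133, and the points of NRAS and HRAS are unfilled in all panels.

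The change of CRABP2 moved no member by as much as 1 on the log2(FPKM + 1) scale in any line. Past that size, with at least 1 FPKM in either library, were 1.13% of measured genes in BHT-101, 4.71% in FTC-133 and 3.71% in 8505C, and 0 of 7 members in BHT-101 and FTC-133 and 0 of 6 in 8505C, where TERT was below 1 FPKM. The widest differences among these members were those of NF2 and NF1. In FTC-133, NF2 was at 14.2 FPKM with siControl and 8.04 with siCRABP2, a difference of -0.75 (1.76-fold lower), and 9.87% of measured genes differed by as much. In 8505C, NF1 was at 7.61 FPKM without and 4.70 with the CRABP2 vector, a difference of -0.60 (1.62-fold lower), and 12.3% of measured genes differed by as much.

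Counting error was small beside these values. The log2 ratio of depth-scaled reads was -0.82 for NF2 in FTC-133 (exact 95% interval -0.91 to -0.73) and -0.70 for NF1 in 8505C (-0.77 to -0.63). NF2 in 8505C had a ratio of -0.55 (-0.75 to -0.36), and RB1 in FTC-133 one of -0.45 (-0.53 to -0.36). So in FTC-133, where CRABP2 was lowered, and in 8505C, where it was raised, NF2 was lower in the treated library both times. In BHT-101 the NF2 ratio was -0.03 (-0.22 to 0.16). With 1 library a group these intervals compare libraries and not conditions.

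Among the RAS genes, NRAS had a log2 ratio of 0.20 in BHT-101 (0.14 to 0.27), -0.30 in FTC-133 (-0.37 to -0.23) and 0.31 in 8505C (0.25 to 0.38). HRAS had -0.16 in BHT-101 (-0.31 to -0.02), -0.27 in FTC-133 (-0.42 to -0.12) and 0.17 in 8505C (0.02 to 0.31). HRAS was thus lower in the library with less CRABP2 in each of the 3 lines, but its difference in 8505C was 0.020 in place of 0.16 with a trend on exon length removed, and that in BHT-101 was -0.070 in place of -0.15 with a trend on GC content removed. BRAF had 0.09 in BHT-101 (-0.05 to 0.23), 0.31 in FTC-133 (0.19 to 0.43) and -0.23 in 8505C (-0.34 to -0.12). NF1 had 0.03 in BHT-101 (-0.07 to 0.12) and 0.16 in FTC-133 (0.01 to 0.31). BRAF and NF1 were thus higher in the library with less CRABP2 in each of the 3 lines. With a trend on GC content removed, their BHT-101 differences were -0.01 and -0.05. TERT in 8505C had a log2 ratio of 0.86 with an interval of -1.12 to 3.08, so no change of its few reads was detectable at this depth.

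Exon length and GC content moved with some of these differences. In 8505C, 811 of 1224 protein-coding genes with at least 10 kb of exons were below 0, with a median of -0.12, and in FTC-133 782 of 1223, with the same median. When a trend on exon length was removed, the NF1 difference in 8505C was -0.37 in place of -0.60 and that of BRAF 0.04 in place of -0.16. In BHT-101 the difference correlated with GC content over 12045 genes (Pearson r = -0.230, a description across genes, which are not independent), and without that trend NRAS was at 0.11 in place of 0.20. The 32 neighbours of NF1 had a median of -0.08 in 8505C, and the 41 neighbours of NF2 one of -0.09 in FTC-133.

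**Figure D3:**
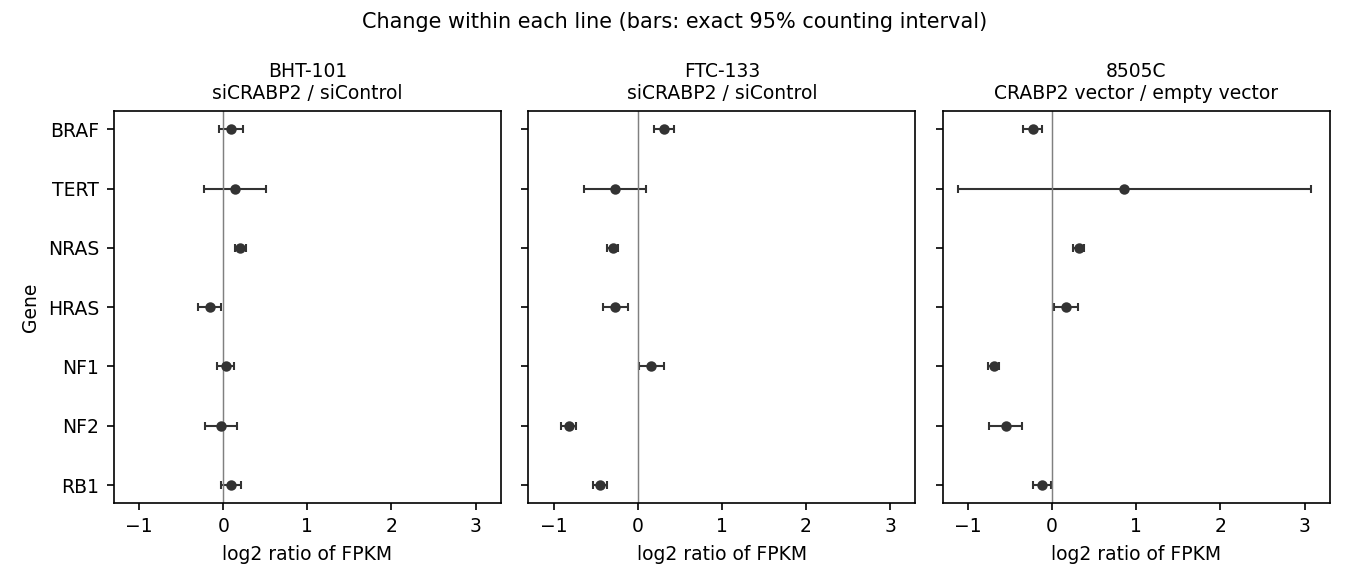
Log2 ratio of FPKM (equal to that of depth-scaled reads), treated over control, for each gene in each line, with exact 95% counting intervals. NF2 in FTC-133 (-0.82) and NF1 in 8505C (-0.70) lie lowest, and the TERT interval in 8505C runs from -1.12 to 3.08.

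Over lines, no gene of any kind was called. With siCRABP2 against siControl in BHT-101 and FTC-133 (line as a block, 1 residual degree of freedom), limma called 0 of 12953 genes, with 314 higher and 225 lower at an unadjusted p under 0.05. The member values ran from -0.38 for NF2 (SE 0.22, limma adjusted p = 0.869) to 0.13 for BRAF (limma adjusted p = 0.906). With the lower against the higher CRABP2 arm of all 3 lines, limma called 0 of 11628 genes, with 193 higher and 179 lower at an unadjusted p under 0.05. There the members ran from -0.19 for HRAS to 0.23 for NF1, all with a limma adjusted p of 0.999. Without the FTC-133 libraries this comparison called 87 genes, none of them a member, and TERT did not pass the filter to be tested there.

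The genes that act with the members are described next, from lists chosen by function. Their counts of calls are to be read against the 41.9%, 61.2% and 58% of all genes called in the 3 contrasts, which the shares called among RAS exchange factors, GTPase-activating proteins, kinases, telomere proteins and RB pathway genes exceeded by less than 10 percentage points where at all. Some counted genes passed the filter on low values only through other lines, so the direction of their calls was fixed beforehand. Examples are GAB1, below 1 FPKM in BHT-101, and LZTR1, CCNE1 and TK1, below 1 FPKM in 8505C. Among RAS exchange factors and adaptors, which load RAS with GTP, 6 of 12 genes were tested, and 4 (SOS1, SOS2, GAB1 and PTPN11) were higher in 8505C than in BHT-101 (limma adjusted p under 0.05) and none lower. SOS1 was at 2.72 and 2.89 FPKM in BHT-101, 3.72 and 3.18 in FTC-133, and 9.16 and 6.74 in 8505C, and SOS2 followed the same order. Of 10 tested GTPase-activating proteins and SPRED partners, 5 (RASA2, RASA3, SPRED1, SPRED2 and SPRED3) were higher and 1 (LZTR1) lower in 8505C than in FTC-133. SPRED1, which brings neurofibromin to the membrane, was at 10.3 and 10.04 FPKM in BHT-101, 5.76 and 4.46 in FTC-133, and 21.1 and 24.7 in 8505C. FTC-133 was thus lowest, and 8505C highest, for SPRED1 as for NF1. DAB2IP, a RAS GTPase-activating protein, was at 7.94 and 3.998 FPKM in FTC-133, a difference of -0.84 within that line. The largest difference between lines among RAS relatives was in MRAS, at 7.60 and 6.78 FPKM in FTC-133 and 1.19 or less elsewhere.

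Downstream of RAS and BRAF, part of the transcripts that ERK signalling induces were lower in FTC-133 than in BHT-101. Of 9 tested ERK output genes, 5 (SPRY2, SPRY4, DUSP4, DUSP6 and ETV4) were lower in FTC-133 than in BHT-101 and none higher (median -1.19, against 0.17 over all genes), and 8 were higher in 8505C than in FTC-133 (median 1.91, against -0.12). DUSP4, a phosphatase that acts on ERK, was at 18.4 and 17.4 FPKM in BHT-101, 1.82 and 5.02 in FTC-133, and 42.8 and 38.6 in 8505C. SPRY4, a feedback inhibitor, was at 8.88 and 7.68, 1.04 and 1.45, and 11.8 and 11.9 FPKM. The ETS factor ETV4 was at 17.5 and 17.2, 3.04 and 6.23, and 21.9 and 16.9 FPKM. In these 3 genes FTC-133 lay below the other lines with no overlap. CCND1 and ETV5 overlapped between FTC-133 and BHT-101, and PHLDA1 was at 31.0 and 35.7 FPKM in FTC-133 against 27.1 and 24.3 in BHT-101. With siCRABP2 in FTC-133, 8 of 9 measured genes of the list were above 0 (SPRY2 by only 0.0009), against 46.1% of all measured genes. With siCRABP2 in BHT-101, 2 were above and 7 below 0 (median -0.08), where 53.3% of all measured genes were above 0. With the vector in 8505C, 3 were above and 7 below 0 (median -0.07), where 52.8% of all measured genes were above 0. DUSP4 passed the size rule in FTC-133 at 1.10. In 8505C the receptor gene EPHA4 passed it at -1.07, from 3.86 FPKM to 1.31 with the vector.

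Of 14 tested RAF, MEK and ERK kinases and scaffolds, 7 were higher and 2 (PEBP1 among them) lower in 8505C than in BHT-101, and 2 (MAP2K1 and YWHAZ) were higher and 1 (PEBP1) lower in FTC-133 than in BHT-101. PEBP1, an inhibitor of RAF signalling, was at 214 and 206 FPKM in BHT-101, 120 and 80.0 in FTC-133, and 70.7 and 72.8 in 8505C. It was highest in BHT-101, with no overlap. Within lines no gene of this list passed the size rule.

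Around telomerase the calls went both ways. Of 18 tested genes for telomerase assembly and telomere proteins, 5 (NAF1, PARN, TERF2, TERF2IP and TINF2) were higher and 6 lower in 8505C than in BHT-101. DKC1, the dyskerin subunit, was at 88.9 and 93.5 FPKM in BHT-101, 33.7 and 29.5 in FTC-133, and 37.2 and 43.5 in 8505C. Dyskerin was therefore highest in BHT-101, whereas TERT was level between BHT-101 and FTC-133. TERF1, a protein of the telomere sheath, was at 12.7 FPKM with siControl and 5.43 with siCRABP2 in FTC-133, a difference of -1.10, the only gene of this list past the size rule in any line. Of 12 ETS and GABP factors, 8 were higher and none lower in 8505C than in BHT-101, where 61.2% of all genes were called. In FTC-133, 6 were higher and 3 lower than in BHT-101, where 41.9% of all genes were called. In 8505C, 9 were higher and 1 lower than in FTC-133, where 58% of all genes were called. Among these calls, GABPB2 was below 1 FPKM in FTC-133, so it could only be low there. ETS1 was at 8.48 and 8.16 FPKM in BHT-101, 18.2 and 26.7 in FTC-133, and 31.5 and 43.7 in 8505C.

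Among merlin partners and Hippo kinases, 19 of 26 tested genes were higher and 2 (EZR and TEAD4) lower in 8505C than in BHT-101 (median 1.27, against 0.005 over all genes), and 17 were higher and 2 (TAOK2 and EZR) lower in 8505C than in FTC-133. The angiomotin relative AMOTL1, a junctional partner of the pathway, was at 2.66 and 2.64 FPKM in BHT-101, 3.45 and 3.32 in FTC-133, and 27.1 and 23.7 in 8505C. TEAD1, the DNA-binding partner of YAP1, was at 4.89 and 4.83, 11.8 and 7.01, and 34.3 and 33.8 FPKM. MSN, which encodes moesin, a relative of merlin, was at 52.7 and 44.3, 97.5 and 111, and 272 and 296 FPKM. NF2 was highest in FTC-133 and these 3 genes in 8505C. In FTC-133, 6 were higher and 1 (TEAD4) lower than in BHT-101. Within lines no gene of the list passed the size rule, and the nearest was WWC1 in 8505C at 2.68 and 6.02 FPKM, a difference of 0.93.

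E2F target genes, which RB1 represses, were low in 8505C. All 16 tested E2F target genes were lower in 8505C than in FTC-133 and 15 of 16 lower than in BHT-101 (medians -2.40 and -2.28). CDK1, the mitotic kinase, was at 21.6 and 24.9 FPKM in BHT-101, 46.0 and 39.8 in FTC-133, and 0.724 and 5.31 in 8505C. TK1, which makes thymidine nucleotides for DNA synthesis, was at 41.6 and 43.1, 57.5 and 30.4, and 0.0949 and 0.736 FPKM. RB1 itself did not pass the test between 8505C and either line. Within 8505C all 15 measured targets were above 0 with the CRABP2 vector (median 0.62, against 0.02 over all measured genes), and 4 passed the size rule, CDK1 at 1.87, MYBL2 at 1.25, CCNA2 at 1.22 and RRM2 at 1.13. Within FTC-133 all 16 were below 0 with siCRABP2 (median -0.60, against -0.04), and 1 passed it. In BHT-101, 6 were above and 10 below 0 (median -0.07). E2F targets were thus lower in the library with less CRABP2 in FTC-133 and 8505C, and RB1 was lower with siCRABP2 in FTC-133 and had a log2 ratio of -0.12 (-0.22 to -0.01) with the vector in 8505C.

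Other genes of the RB pathway, E2F factors and RB1 relatives among them, differed between lines about as often as all genes did, or less often. Of 21 tested RB pathway genes, 3 (RBL2, E2F5 and CCND1) were higher and 10 lower in 8505C than in FTC-133. CDKN2C, an inhibitor of CDK4 and CDK6, was at 9.60 and 11.9 FPKM in BHT-101, 84.3 and 47.8 in FTC-133, and 2.22 and 1.11 in 8505C. CCNE1, cyclin E1, was at 2.96 and 2.38, 10.9 and 10.7, and 0.533 and 0.442 FPKM. Both were highest in FTC-133, as RB1 was. In FTC-133, the CDK inhibitor CDKN1A was at 9.39 FPKM with siControl and 32.8 with siCRABP2, a difference of 1.70, and the RB1 relative RBL1 was at 4.94 and 2.01, a difference of -0.98. In 8505C, E2F7, a repressor of E2F targets, was at 2.05 and 6.16 FPKM, a difference of 1.23.

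**Figure D4:**
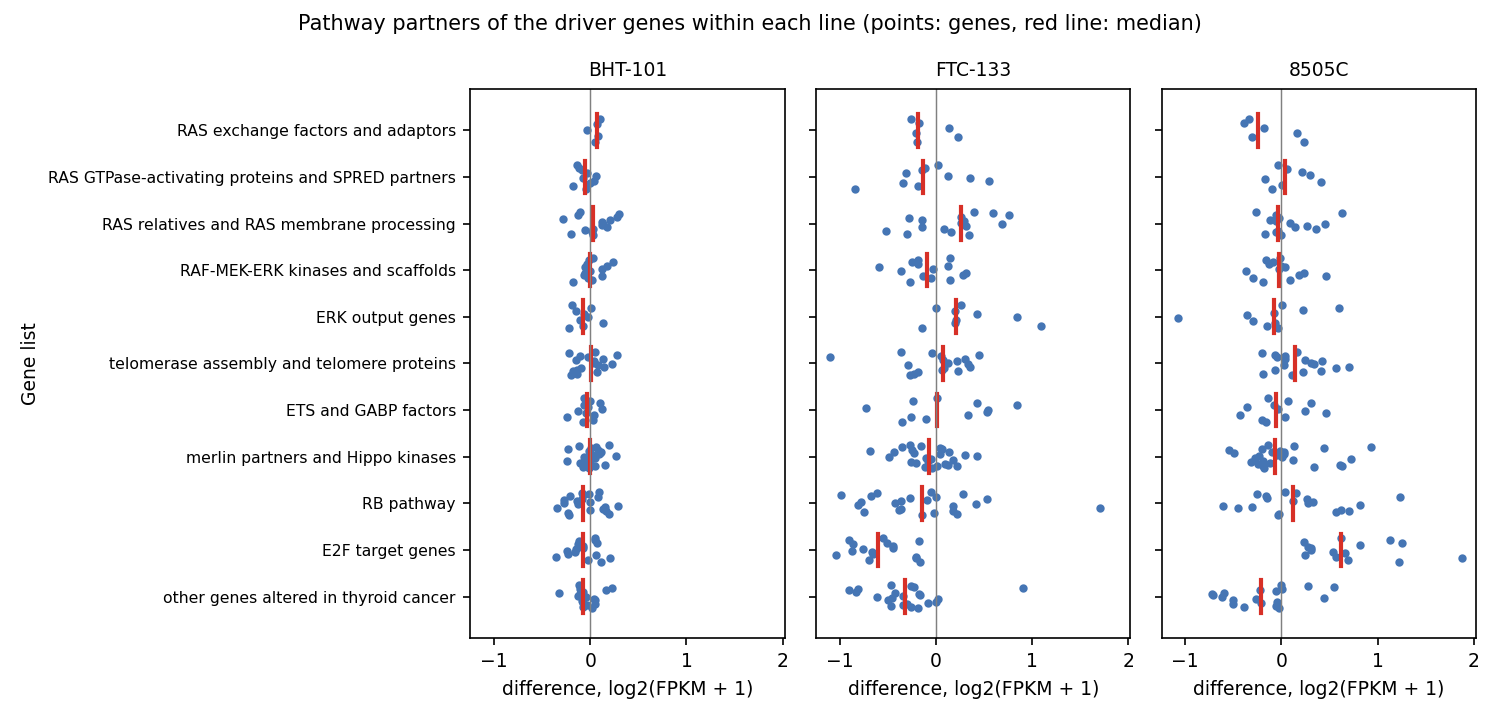
Difference on the log2(FPKM + 1) scale within each line, treated minus control, for the measured genes of each list (1 point a gene, red line for the median). Medians of E2F target genes lie at -0.60 in FTC-133 and 0.62 in 8505C, and at -0.07 in BHT-101.

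Of 23 other genes altered in thyroid cancer, 22 were measured in FTC-133, and 19 of these were below 0 with siCRABP2 (median -0.32). Of all genes measured in that line, 46.1% were above 0 (median -0.04). In 8505C, 15 of 19 were below 0 with the vector (median -0.21), where 52.8% of all measured genes were above 0 (median 0.02). When the exon-length trend was removed, 9 of the 19 in 8505C were above 0 in place of 4. The histone methyltransferase gene KMT2A was at 6.43 and 3.55 FPKM in 8505C, and KMT2C at 4.10 and 2.10, differences of -0.71 and -0.72. PPARG, a nuclear receptor that is fused to PAX8 in some follicular carcinomas, was at 5.81 and 11.7 FPKM in FTC-133, a difference of 0.90.

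Genes most like a member in profile were ranked by the root mean square difference of log2(FPKM + 1), each centred on its own mean, over the 6 libraries. For NRAS the nearest of 8525 genes was AMMECR1 at 0.0235, and for BRAF LSM12 at 0.0360. For RB1 it was ANKRD54 at 0.0507, and for HRAS TBCC at 0.0607. For TERT, among 15131 genes, it was DHTKD1 at 0.0408, and for NF1 SLC38A1 at 0.0714. For NF2 it was RGL1 at 0.180. With 1 added to each FPKM, a gene as low as TERT can match a gene with a smaller fold difference. DHTKD1 was at 7.15 to 7.88 FPKM in the siRNA lines and 3.29 in 8505C, whereas TERT was near 1 FPKM and at 0.0689 or less. The distance grows with a gene's own spread about its mean, which was 0.823 for NF2, 0.749 for NF1, 0.462 for TERT, 0.357 for RB1, 0.215 for BRAF, 0.195 for NRAS and 0.154 for HRAS. The 6 libraries come from 3 lines, so they are not independent points.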

How the data were processed

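RNA was extracted with Trizol, per the labels' protocols. Reads were checked with FastQC, trimmed with Trimmomatic 0.38 and counted with featureCounts 2.0.0 on GRCh38, per the submitters' processing notes. Not given in the sources used here are the aligner, annotation release and strand setting. The authors deposited FPKM for 58884 identifiers. Reads were recovered as FPKM times exon length (GENCODE release 29), and 75.2% of detected genes gave whole reads within 0.001 at that length. NRAS and HRAS needed a slightly different length.

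Differences are on log2(FPKM + 1), with FPKM of at least 1 in either library. Intervals are exact (Clopper-Pearson). Models used limma 3.58.1 (trend) in R 4.3.3. They were run on simulated data with known changes, whose recovery was required only in the fit between lines. The members and lists were chosen with earlier results of these data known. Named genes were all 7 members, up to 2 per list with the largest difference within each line and up to 2 with the largest range between lines, overlapping genes with at least 1 FPKM, and the 3 genes nearest each member in profile, of which the text gives the nearest and leaves out some other genes the rule names. Genes named only by their call, in counts of 5 or fewer, were added after their values were seen. Alternatives were other pseudocounts, scalings, filters, trends on GC content or exon length, and left-out libraries. The promoter window of RB1 was not used, because it lies 172724 bases from the annotated start. Values of some list genes are not reported here.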

Additional observations from a re-analysis of the deposited data

Results flagged for a closer look

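With siCRABP2, 3 members had differences of opposite sign in the 2 knockdown lines, each from 1 library an arm, and this difference was not tested. The FTC-133 difference minus the BHT-101 difference was -0.21 for TERT, -0.49 for NRAS and -0.50 for RB1, on the log2(FPKM + 1) scale. NRAS was higher with siCRABP2 in BHT-101 (32.2 and 37.1 FPKM) and lower in FTC-133 (33.8 and 27.4). RB1 was at 7.10 and 7.56 FPKM in BHT-101, against 15.9 and 11.7 in FTC-133. The counting intervals included no change for TERT in both lines and for RB1 in BHT-101, where the RB1 difference was -0.0011 with a trend on GC content removed.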

How the results depend on the processing

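Each group is 1 library, so differences within a line have no replicate check and a null limma result says little. Genes past the size rule numbered 136 in BHT-101, 605 in FTC-133 and 435 in 8505C. They numbered 302, 1278 and 895 with a pseudocount of 0.1, 231, 1102 and 789 with TPM scaling, and 326, 1420 and 991 with no pseudocount, which was added after seeing the data, as were centring and the GC and length trends. The limma comparison of CRABP2 arms called 87 genes without the FTC-133 libraries (46 higher, 41 lower) and 0 without either other line. Over the left-out lines RB1 ranged from -0.17 to 0.094 and NF2 from -0.38 to 0.19, both turning positive without FTC-133. With no replicate block on line, limma called 0 genes in either comparison of arms. No paired analysis by replicate number was possible because each group holds 1 library. Leaving out 1 library gave 1854 to 5442 calls for FTC-133 minus BHT-101 (4868 with all; fewest without BHT-101 siControl, and 2043 without BHT-101 siCRABP2) and 4216 to 7775 for 8505C minus BHT-101 (7118 with all; 4216 without BHT-101 siCRABP2 and 4248 without BHT-101 siControl). Uncalled values changed sign when 1 library was left out. In FTC-133 minus BHT-101, TERT ranged from -0.033 to 0.044 (0.056 with TPM scaling) and NRAS from -0.43 to 0.070. In 8505C minus BHT-101, NF2 ranged from -0.33 to 0.46, with -0.0087 without BHT-101 siControl, and NRAS from -0.082 to 0.41. The cause was not tested.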
